A study of Drosophila melanogaster with 24 samples.

Results

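Transcripts of 3 Drosophila melanogaster genes, egr, wgn and skl, were followed in whole embryos in which the Notch pathway, the Ras pathway or both had been switched on throughout the body. The genes were taken by their symbol in the platform annotation, which gave 3 of 10844 named genes, each with 1 of the 14010 probe sets of the Affymetrix DrosGenome1 array. The probe sets are 146921_at for egr (eiger, NCBI Gene 36054), 145316_at for wgn (wengen, 32849) and 148994_at for skl (sickle, 40016).

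egr encodes the tumour necrosis factor of the fly, a membrane-bound ligand that can be cut free. wgn encodes one of its receptors, and grnd another. Ligand binding passes through TRAF adaptor proteins and a chain of kinases to Basket, the Jun N-terminal kinase (JNK), and can end in cell death, in repair or in changes of cell shape. skl belongs, with rpr, hid and grim, to a group of small death genes whose proteins bind inhibitor of apoptosis proteins (IAPs) and so free caspases, the proteases that carry out cell death.

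All embryos had mothers homozygous for arm-GAL4, in which the armadillo promoter drives the yeast activator GAL4 in most cells of the embryo, so the controls carry the driver too. Embryos called Notch below had fathers homozygous for UAS-NotchICD, which encodes the intracellular, ligand-independent part of the Notch receptor, and embryos called Ras had fathers homozygous for UAS-Ras85D(V12), a constitutively active form of the GTPase downstream of receptor tyrosine kinases (RTKs). Combined embryos had fathers carrying both transgenes, and control embryos had w1118 fathers. Embryos of each cross were frozen at 7 to 8 h of development counted from laying (the late window, stage mid 11 to 12) and at 5:45 to 6:45 h (the early window, stage 10 to mid 11), as pools of about 500, with n = 3 arrays from independent experiments in each of the 8 groups.

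Values are log2 levels, on which a step of 1 is a doubling. Array medians lay between 4.04 and 4.22. A level of 5, the floor for testing here, was reached by 5369 to 5677 probe sets on each array. Probe sets named for the transgenes' own genes were not analysed here. Markers of neural, mesodermal, glial, blood, epidermal and gut tissue were all measured, and the adult yolk protein gene Yp1 (at most 2.67) and the larval salivary glue gene Sgs3 (at most 2.76) were near the bottom of the scale. The Affymetrix control probe sets for the 3' and 5' ends of the GAPDH transcript differed more in late arrays: the 3' minus 5' difference averaged 1.61 in Notch, 2.44 in Ras, 1.98 in combined and 3.17 in control late arrays, against 0.69, 1.02, 0.90 and 0.76 log2 units in the early ones. The same difference for actin averaged 0.43 to 0.64 log2 units in all 8 groups. The part of RNA integrity in the results below was not tested.

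egr was low wherever Notch was activated, with or without Ras, and high in late embryos without activated Notch. In the late window egr stood at 4.35, 4.50 and 4.18 in Notch arrays, 6.23, 6.65 and 6.83 in Ras arrays, 4.19, 4.37 and 4.38 in combined arrays, and 6.48, 6.36 and 6.76 in control arrays. In the early window it stood at 4.32, 4.25 and 4.22 in Notch arrays, 5.49, 5.04 and 5.15 in Ras arrays, 4.45, 4.38 and 4.30 in combined arrays, and 4.94, 5.36 and 5.12 in control arrays. No array with activated Notch reached 5, and in both windows all of them lay below every Ras and control array, whereas the Ras and control arrays overlapped.

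wgn was higher in every transgenic group, and highest in late embryos with activated Ras. Its late levels were 6.48, 6.11 and 6.68 in Notch arrays, 7.42, 7.06 and 7.80 in Ras arrays, 7.98, 7.71 and 8.14 in combined arrays, and 5.74, 5.52 and 5.91 in control arrays. Its early levels were 6.20, 5.91 and 6.31 in Notch arrays, 6.37, 6.33 and 6.40 in Ras arrays, 6.66, 6.60 and 6.87 in combined arrays, and 5.32, 5.30 and 5.44 in control arrays. The control arrays lay below all transgenic arrays of the same window, and the late Ras and combined arrays lay above all others.

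skl was higher in late embryos with activated Notch, alone or with Ras, and lay between 4.48 and 5.31 elsewhere. Its pooled spread within groups was larger than that of 89.8% of rows. Late levels were 6.18, 5.68 and 6.77 in Notch arrays, 4.90, 4.99 and 5.27 in Ras arrays, 5.82, 6.06 and 6.68 in combined arrays, and 4.56, 5.12 and 5.31 in control arrays. Early levels were 5.12, 5.21 and 5.09 in Notch arrays, 4.65, 4.48 and 5.01 in Ras arrays, 4.91, 5.08 and 5.11 in combined arrays, and 4.88, 4.90 and 4.72 in control arrays. The 6 late arrays with activated Notch lay above the other 18 arrays, and they also differed among themselves more than the arrays of any other group, with SDs of 0.55 in Notch and 0.44 in combined arrays against 0.39 in late control arrays.

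**Figure D1:**
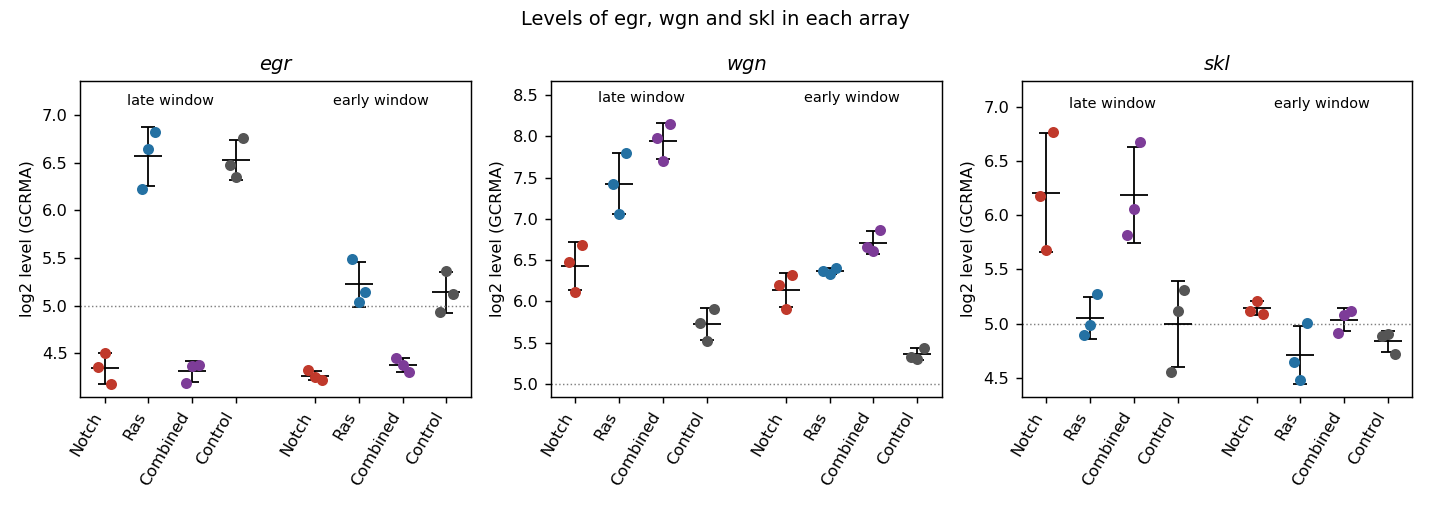
Log2 level of egr, wgn and skl in each of the 24 arrays (points, in the order of replicate 1 to 3) by cross and window, with the group mean and SD (horizontal mark and bars, n = 3) and the level of 5 as a dotted line. All 12 arrays with activated Notch lie at 4.50 or less for egr, the late Ras and combined arrays are at 7.06 or more for wgn, and the late Notch and combined arrays are at 5.68 or more for skl.

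Comparisons came from 1 limma fit over all 24 arrays and 5736 rows (probe sets that reached 5 in at least 3 arrays, 1 per gene), with p-values adjusted by Benjamini-Hochberg within each comparison over all rows and a call at an adjusted p under 0.05. All 3 genes passed the filter. egr did so only through Ras and control arrays (11 arrays at 5 or more), so its falls with activated Notch were fixed in part by that choice. wgn reached 5 in all 24 arrays. skl reached 5 in 15 arrays, 11 of them with activated Notch. The others were 2 late control, 1 early Ras and 1 late Ras array, so skl would have passed without the arrays with activated Notch. The ± beside a difference is the fit's standard error (n = 3 per group), and that beside a level is the SD. Notch, Ras and combined embryos were each set against the same control arrays, so these comparisons are not independent of each other.

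With activated Notch, egr fell by 0.88 ± 0.15 log2 units in the early window (Notch 4.27 ± 0.05 and control 5.14 ± 0.21, SD, n = 3 each; limma adjusted p = 0.00046) and by 2.19 ± 0.15 in the late window (Notch 4.34 ± 0.16 and control 6.53 ± 0.21; adjusted p = 8.3e-10). The late difference is a 4.55-fold lower level, on a scale that understates the change of a gene near the floor. In RNA from whole embryos, fewer cells that express a gene and less RNA per cell cannot be told apart.

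wgn rose with Notch by 0.79 ± 0.17 log2 units early (limma adjusted p = 0.0047) and by 0.70 ± 0.17 late (adjusted p = 0.0067, and 0.051 without late Notch replicate 3, where the difference was 0.57). skl rose with Notch by 1.21 ± 0.24 log2 units late (Notch 6.21 ± 0.55 and control 5.00 ± 0.39; adjusted p = 0.00093). Its early difference was 0.30 (95% interval -0.19 to 0.80, adjusted p = 0.79), although the early Notch arrays did not overlap the control arrays. Thus 2 of the 3 genes were called early with Notch, where 5.42% of all rows were called, and 3 of 3 late, where 13.7% were called.

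Markers of several tissues were called with Notch, and the neural ones changed furthest in their median. Of 12 tested genes of neural progenitors and neurons, 9 were lower and 1 higher early with Notch (5.42% of all rows called). Late, 11 were lower (13.7% of all rows called). Their median log2 changes were -1.40 early and -2.02 late, against -0.04 and 0.01 over all rows. Their summed level ranged from 9.96 to 10.24 in Notch arrays and 11.38 to 11.50 in control arrays early, and from 9.52 to 9.79 in Notch arrays and 11.51 to 11.84 in control arrays late, in log2 units. The means of 7 of the 12 were below 5 in late Notch arrays, against none in late control arrays. Among the 7 were the neuroblast genes wor and insc and the nascent neuron gene nerfin-1. In this list wor, insc, nerfin-1, tap, Oli and Hey reached 5 only in Ras and control arrays and passed the filter through them. Their falls were thus fixed in part by that choice. With both transgenes 9 were lower and 1 higher early (6.96% of all rows called) and 11 lower late (15.1%). With Ras none was called (0.366% of all rows called early and 2.16% late). The replicate block added dpn to the late falls with Notch, which made 12 (21.5% of all rows called with the block). It called mira higher late with Ras (4.9% of all rows).

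Among 6 glial and midline genes, of which repo passed the filter only through late Ras and control arrays, 3 were lower and 1 higher late with Notch. The higher one, wrapper, a gene of glia that wrap axons, averaged 9.08 in late Notch, 9.18 in late combined, 5.94 in late Ras and 5.77 in late control arrays, and was already higher early (7.41 in Notch and 4.42 in control arrays). Of 6 epidermal genes, 2 were higher and 1 lower with Notch in each window, and of 4 gut genes, 1 was lower late and 2 early. The share of all rows called with Notch was 5.42% early and 13.7% late. The part of any of these tissues in the fall of egr, the rise of wgn and the late rise of skl was not tested.

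Activated Ras changed wgn and left no call for the other 2 genes. wgn rose by 1.01 ± 0.17 log2 units in early Ras embryos (Ras 6.37 ± 0.04 and control 5.36 ± 0.07; limma adjusted p = 0.0044) and by 1.70 ± 0.17 in late ones (Ras 7.43 ± 0.37 and control 5.72 ± 0.19; adjusted p = 2.7e-06), a 3.25-fold higher level. It was the 6th largest of 15 rises called early with Ras and the 3rd largest of 63 called late. The share of all rows called was 0.366% early and 2.16% late, and 1 of the 3 genes was called in each window.

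For egr the difference between Ras and control was 0.08 log2 units early (95% interval -0.23 to 0.40) and 0.04 late (-0.28 to 0.35). For skl it was -0.13 early (-0.62 to 0.37) and 0.05 late (-0.44 to 0.55). These intervals leave room for a change of up to 0.62 log2 units in skl and 0.40 in egr. Direct comparison showed that the 2 transgenes differed: late egr was 2.22 ± 0.15 log2 units higher in Ras than in Notch embryos (limma adjusted p = 5.6e-10), wgn 1.00 ± 0.17 higher (adjusted p = 0.00022) and skl 1.16 ± 0.24 lower (-1.16, adjusted p = 0.0014), where 14.9% of rows were called. In the early window egr was 0.96 ± 0.15 higher in Ras than in Notch embryos (adjusted p = 0.00016, 6.24% of rows called), and wgn (0.22, 95% interval -0.13 to 0.58) and skl (-0.43, -0.92 to 0.06) were not called.

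Mesoderm markers moved with wgn in part. Of 7 tested mesoderm and early muscle genes, 6 were higher late with Ras, where 2.16% of all rows were called. They included the mesoderm determinant twi (1.50 ± 0.13 log2 units), the MyoD-family gene nau (1.77 ± 0.25) and the FGF receptor gene htl (1.43 ± 0.23). nau reached 5 only in Ras arrays and passed the filter through them, so its difference was fixed in part by that choice. Early with Ras, htl was called higher (0.366% of all rows called), and the replicate block added nau as higher and zfh1 as lower (0.767% with the block). Late with Notch 2 of the 7 were higher and 2 lower (13.7% of all rows called), and the block added bap as higher (21.5% with the block). Their summed level ranged from 9.34 to 9.93 in late Ras arrays, 9.03 to 9.28 in late Notch arrays, 9.74 to 9.95 in late combined arrays and 8.51 to 8.72 in late control arrays, in log2 units. In late combined embryos, where wgn was highest, 3 of the 7 were higher and 1 lower (15.1% of all rows called). There htl (-0.06 ± 0.23) and nau (-0.31 ± 0.25) were not called. No mean of the 7 was below 5 in late Ras arrays, against 2, twi and nau, in late control arrays. Early with Notch 1 of the 7 was higher (5.42% of all rows called), and early with both transgenes 2 were higher and 1 lower (6.96%). The median log2 change of the 7 was 1.12 late with Ras, 0.005 late with Notch and -0.06 late with both. In the same order it was 0.41, -0.05 and -0.03 early. The part of these cells in the rise of wgn was not tested.

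**Figure D2:**
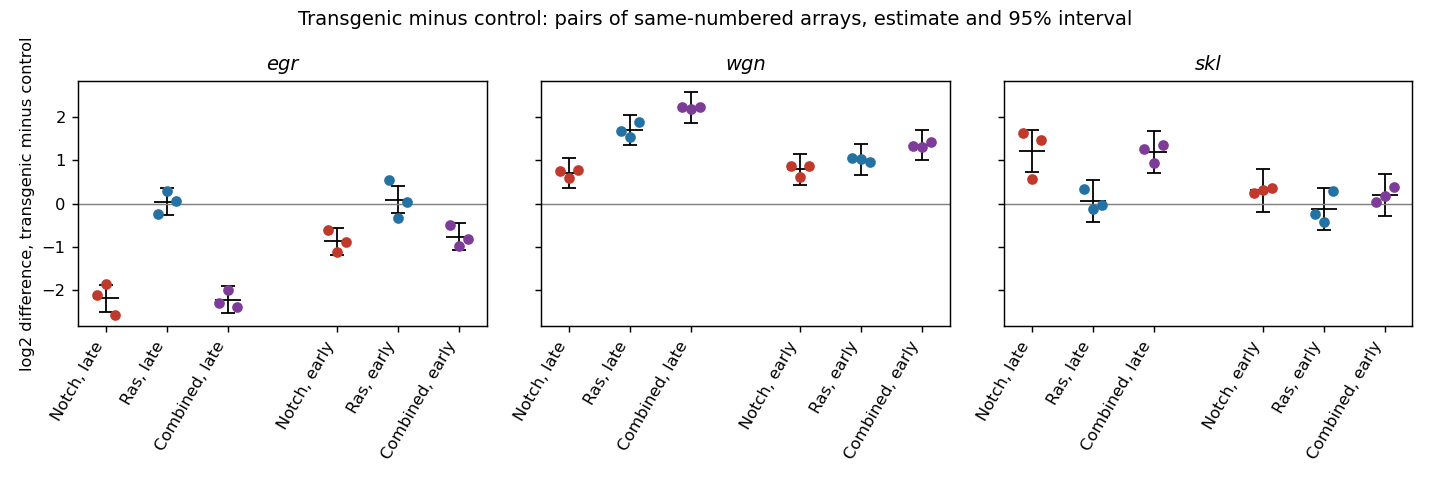
Log2 difference of transgenic minus control for egr, wgn and skl in both windows: points are differences of same-numbered arrays, and the black mark and bars give the estimate and its 95% interval from the fit over all arrays. egr is below 0 in all 12 pairs with activated Notch, wgn is above 0 in all 18 pairs (0.58 to 2.24), and skl is above 0 in all 6 late pairs with activated Notch (0.56 to 1.62).

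With both transgenes, egr and skl lay close to their levels with Notch alone, and late wgn lay above it. egr fell by 0.76 ± 0.15 log2 units early (limma adjusted p = 0.0017) and by 2.22 ± 0.15 late (adjusted p = 6.1e-10) in combined embryos against control. skl was 0.20 higher early (95% interval -0.29 to 0.69, not called) and rose by 1.19 ± 0.24 late (adjusted p = 0.0011). wgn rose by 1.35 ± 0.17 early (adjusted p = 8.0e-06) and by 2.22 ± 0.17 late (combined 7.94 ± 0.22 and control 5.72 ± 0.19; adjusted p = 3.4e-09), a 4.65-fold higher level. The share of all rows called was 6.96% early and 15.1% late, with 2 and 3 of the 3 genes called.

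Set against Notch alone, combined embryos differed in egr by 0.11 log2 units early (95% interval -0.20 to 0.42) and -0.03 late (-0.34 to 0.28), and in skl by -0.10 early (-0.60 to 0.39) and -0.03 late (-0.52 to 0.47). wgn was 1.52 ± 0.17 higher late in combined than in Notch embryos (limma adjusted p = 9.7e-06, 1.83% of rows called). Its early difference of 0.57 ± 0.17 was not called (adjusted p = 0.25, 0.227% of rows called), and was called at adjusted p = 0.0020 with the replicate block, in which arrays of the same window and number are compared within their set.

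Set against Ras alone, combined embryos had less egr, by -0.85 ± 0.15 log2 units early (limma adjusted p = 0.00060) and -2.26 ± 0.15 late (adjusted p = 4.7e-10), and more skl late (1.13 ± 0.24, adjusted p = 0.0022), where 11% of rows were called early and 11.3% late. wgn was 0.34 ± 0.17 higher in combined than in Ras embryos early (adjusted p = 0.21, and 0.0083 with the replicate block) and 0.52 ± 0.17 higher late (adjusted p = 0.054, and 0.00022 with the block). The late difference was also called after quantile normalisation (adjusted p = 0.035), without late combined replicate 2 (0.033) and without late Ras replicate 3 (0.0082). All 3 combined arrays were above all 3 Ras arrays early, and 1 late combined array (7.71) lay below the highest late Ras array (7.80).

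The combined effect was compared with the Notch and Ras effects added together in log2 units. For wgn the combined effect differed from the sum by -0.44 ± 0.24 log2 units early (limma adjusted p = 0.57) and -0.18 ± 0.24 late (adjusted p = 1.00). For egr the interaction was 0.03 ± 0.21 early and -0.07 ± 0.21 late, and for skl 0.02 ± 0.33 and -0.08 ± 0.33. None was called, with 0.139% of rows called early and 0.227% late. The 95% intervals reach -0.94 for wgn early and -0.78 for skl late.

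Between the windows egr rose in Ras and control embryos. It was 1.34 ± 0.15 log2 units higher late than early in Ras embryos (limma adjusted p = 1.7e-06) and 1.39 ± 0.15 higher in control embryos (adjusted p = 8.0e-07). In Notch embryos it differed by 0.08 (95% interval -0.24 to 0.39) and in combined embryos by -0.07 (-0.38 to 0.25). The effect of Notch was larger late than early by -1.31 ± 0.21 log2 units (adjusted p = 0.0016, 1.6% of rows called), and that of both transgenes together by -1.46 ± 0.21 (adjusted p = 0.00038, 2.55% of rows called). Since egr was already under 5 in early Notch arrays, a further fall there may be understated. Other probe sets read lower in the same arrays, with means of 3.03 for nerfin-1 and 3.26 for insc. These values do not show how low the egr probe set can read, which was not tested.

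wgn rose between windows by 1.06 ± 0.17 log2 units in Ras embryos (limma adjusted p = 8.9e-05) and 1.23 ± 0.17 in combined embryos (adjusted p = 1.5e-05). The late minus early difference was 0.28 ± 0.17 in Notch embryos and 0.37 ± 0.17 in control embryos (adjusted p = 0.23 and 0.10). The effect of Ras on wgn was 0.69 ± 0.24 larger late than early (adjusted p = 0.82, and 0.020 with the replicate block), and the combined effect 0.86 ± 0.24 larger (adjusted p = 0.063, and 0.00027 with the block). In the comparison of the Ras effect between windows 0.0697% of rows were called.

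skl rose between windows in Notch embryos (1.07 ± 0.24 log2 units, limma adjusted p = 0.0018) and in combined embryos (1.15 ± 0.24, adjusted p = 0.00090), and its late minus early difference was 0.34 ± 0.24 in Ras and 0.16 ± 0.24 in control embryos, neither called. The effect of Notch was 0.91 ± 0.33 larger late than early (adjusted p = 0.27, and 0.031 with the replicate block), and the combined effect 0.99 ± 0.33 larger (adjusted p = 0.15, and 0.015 with the block). Of the 3 genes, 1 was called between windows in Notch embryos, 2 in Ras, 2 in combined and 1 in control embryos, where 28.4%, 28.4%, 33.3% and 31.3% of rows were called.

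Ordered by mean level over the 8 groups, egr fell into 3 sets separated by gaps. Late Ras (6.57) and late control (6.53) overlapped and stood 1.31 log2 units above early Ras (5.22) and early control (5.14), which overlapped each other, and the 4 groups with activated Notch lay between 4.27 and 4.38 with overlapping ranges. For wgn the order was late combined (7.94), late Ras (7.43), early combined (6.71), late Notch (6.42), early Ras (6.37), early Notch (6.14), late control (5.72) and early control (5.36). Among these neighbours, the arrays of late combined and late Ras overlapped, as did early combined with late Notch and late Notch with early Ras. For skl late Notch (6.21) and late combined (6.19) overlapped and stood 1.04 above early Notch (5.14), and the remaining 6 groups followed each other with overlapping ranges down to early Ras (4.71).

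The genes with the most similar group means were named by Pearson's r over the 8 groups, as a description: the groups share crosses, windows and processing, and each gene is the extreme of 5736 rows. For egr these were spidey, a gene of very-long-chain lipid synthesis (r = 0.988, and 0.943 over the 24 arrays), CG13928 (0.983 and 0.928) and Hey, a Notch-responsive bHLH repressor gene that is also on the neural list (0.983 and 0.937). The least similar was E(spl)m4-BFM of the Enhancer of split complex, whose genes Notch activates directly (-0.993 and -0.955). E(spl)m4-BFM averaged 11.1 in late Notch and 9.20 in late control embryos, where egr averaged 4.34 and 6.53 log2 units.

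For wgn the most similar genes were sty, which encodes the RTK feedback inhibitor Sprouty (r = 0.988, and 0.935 over arrays), PAN2, a poly(A) nuclease gene (0.962 and 0.704), and the homeodomain gene zfh2 (0.942 and 0.722). sty followed the same order over late embryos, with means of 8.30 in Notch, 8.68 in Ras, 9.06 in combined and 7.60 in control embryos. The range of PAN2 over the groups was small (8.30 to 8.55 log2 units), and so was that of the least similar gene, CG32066 (r = -0.956, 7.66 to 7.94).

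For skl they were E(spl)m7-HLH, a bHLH repressor gene of the Enhancer of split complex (r = 0.994, and 0.892 over arrays), yki, the transcriptional coactivator gene of the Hippo pathway (0.983 and 0.738), and CG3349 (0.982 and 0.828), and CG30431 was least similar (-0.979 and -0.914). E(spl)m7-HLH averaged 12.3 in late Notch, 10.7 in late Ras, 12.3 in late combined and 10.5 in late control embryos. The range of yki over the groups was small (8.18 to 8.68 log2 units), and CG3349 was dim (4.63 to 5.64). Between the 3 genes themselves r over group means was -0.13 for egr and wgn, -0.49 for egr and skl, and 0.52 for wgn and skl.

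**Figure D3:**
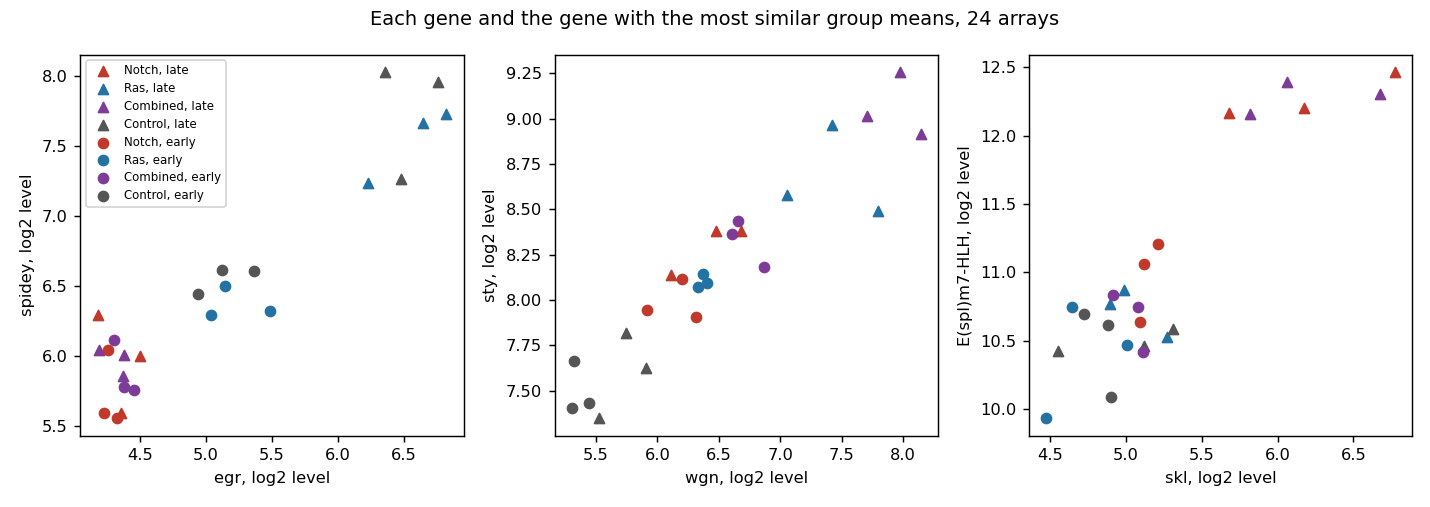
Log2 level of egr, wgn and skl (x axes) against the gene with the most similar group means (y axes: spidey, sty and E(spl)m7-HLH) in the 24 arrays, coloured by cross, with circles for the early and triangles for the late window. The late Ras and control arrays form the upper group for egr, and the late Notch and combined arrays form the upper group for skl.

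Of 14 other listed genes of the TNF and JNK pathway, 11 were tested, and none was called early with Notch, Ras or both, or late with Ras. The share of all rows called there was 5.42%, 0.366% and 6.96% early, and 2.16% late with Ras. Late with Notch 1 of the 11 was called, beside 13.7% of all rows, and late with both transgenes 2 of the 11, beside 15.1%. grnd, which encodes the other TNF receptor, rose late with Notch by 0.58 ± 0.12 log2 units (Notch 6.92 ± 0.08 and control 6.34 ± 0.21; limma adjusted p = 0.0014) and with both transgenes by 0.52 ± 0.12 (adjusted p = 0.0037, and 0.057 in the fit on only the arrays compared). The Jun gene Jra rose in late combined embryos by 0.53 ± 0.15 (adjusted p = 0.019), and lost its call without late control replicate 1 (adjusted p = 0.094) or late combined replicate 2 (0.12) and in the fit on only the arrays compared (0.061). With the replicate block Jra and msn, a kinase gene upstream of JNK, were also called late with Notch, which made 2 higher and 1 lower of 11. The block called 21.5% of all rows in that comparison. The adaptor gene Traf4 and the JNK gene bsk were not called in any comparison with control.

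The median change of these 11 genes lay between -0.04 and 0.12 log2 units in the 6 comparisons with control, beside -0.04 to 0.04 over all rows. puc, a target and inhibitor of JNK, was among the uncalled genes. The Fos gene kay reached at most 5.19 and was not tested, and Tak1 and Mmp1 were not analysed here.

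Of the other death genes in the group of skl, grim reached at most 4.89 and was not tested, and rpr and hid were not analysed here. The inhibitor of apoptosis genes Diap2, Bruce and Det were not called in any of the 6 comparisons with control, where 0.366% to 15.1% of all rows were called. Of 5 tested caspase and activator genes, 1 was called late with Notch and 2 late with both transgenes, beside 13.7% and 15.1% of all rows. The effector caspase gene Dcp-1 rose late with Notch (0.41 ± 0.10 log2 units, limma adjusted p = 0.0059) and with both transgenes (0.39 ± 0.10, adjusted p = 0.0070), at 9.14 to 9.18 in late Notch, 9.12 to 9.17 in late combined and 8.71 to 8.81 in late control arrays. The caspase gene Dredd rose in late combined embryos (0.42 ± 0.13, adjusted p = 0.035) and lost this call without any 1 of the 6 arrays compared (adjusted p up to 0.15). Dronc, Dark and Strica were not called, Damm and Fadd were too dim to test, and Drice and Decay were not analysed here.

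Among p53, Corp and HtrA2, Corp, a regulator of p53, fell early with Notch (-0.56 ± 0.14 log2 units, limma adjusted p = 0.022) and with both transgenes (-0.69 ± 0.14, adjusted p = 0.0034), beside 5.42% and 6.96% of all rows called. The first of these calls was lost without early control replicate 1 (adjusted p = 0.069) or 3 (0.15) or early Notch replicate 1 (0.12), and in the fit on only the arrays compared (0.062). HtrA2 was also called late with Notch under the replicate block, which called 21.5% of all rows there. The Bcl-2 family genes Debcl and Buffy were too dim to test.

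Of 4 engulfment genes, which serve to clear dead cells, 1 was called in each window with Notch and with both transgenes, beside 5.42% and 6.96% of all rows early and 13.7% and 15.1% late. drpr fell early with Notch (-0.44 ± 0.10 log2 units, limma adjusted p = 0.0072) and with both (-0.56 ± 0.10, adjusted p = 0.00056). The fall with Notch lost its call without early Notch replicate 3 (adjusted p = 0.056) and in the fit on only the arrays compared (0.17). The scavenger receptor gene crq rose late with Notch (0.81 ± 0.13, adjusted p = 0.00010) and with both (0.43 ± 0.13, adjusted p = 0.026). crq reached 5 only in the 3 late Notch arrays and passed the filter through them, so its rise with Notch was fixed in part by that choice. Its call with both transgenes was lost without late control replicate 2 or 3 or late combined replicate 1 or 3, with adjusted p as high as 0.14. It was also lost when only the arrays compared were fitted (0.10). With the replicate block crq was also called early with Notch (8.63% of all rows called with the block). Blood cell markers, which include crq and drpr, went mostly the other way late with Notch, with 5 of 8 lower and 1 higher (13.7% of all rows called). Their summed levels were 9.95 to 10.02 in Notch and 10.10 to 10.45 in control arrays. PPO1 and Sr-CI reached 5 only in Ras and control arrays and passed the filter through them, so their falls were fixed in part by that choice.

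**Figure D4:**
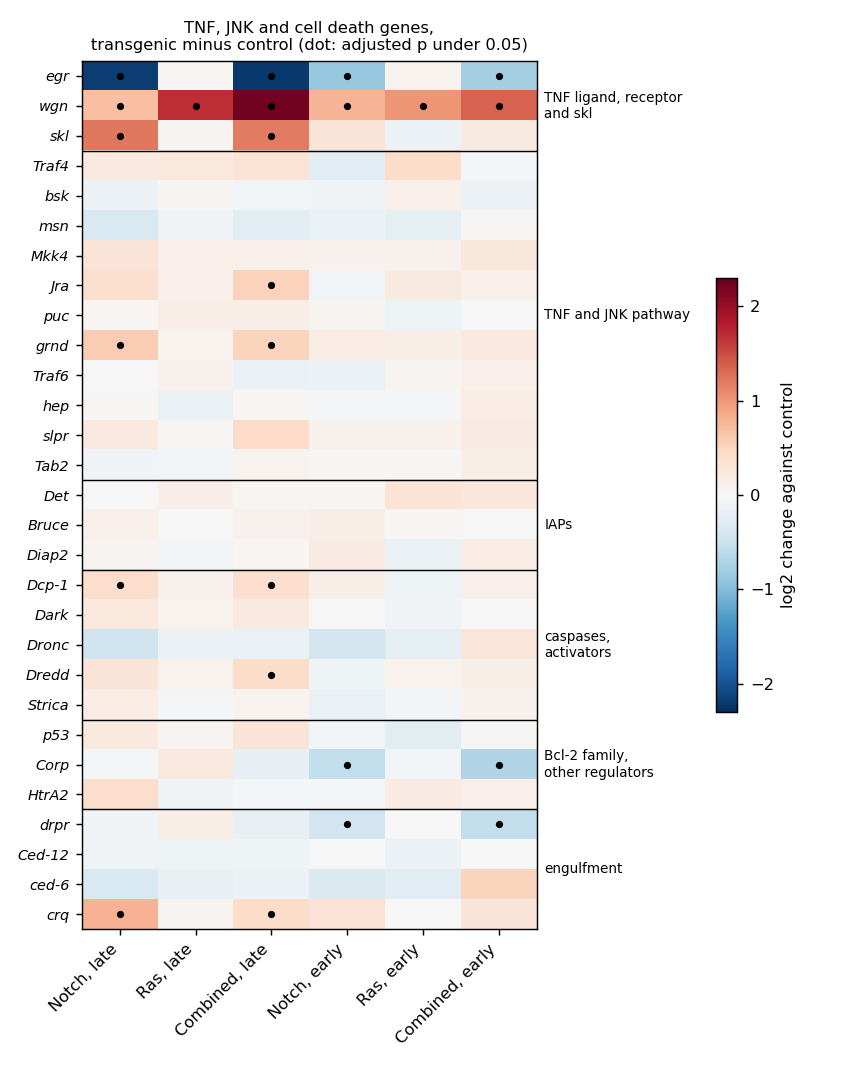
Log2 change against control (colour) of egr, wgn, skl and 26 tested genes of the TNF and JNK pathway, the inhibitor of apoptosis proteins (IAPs), caspases, other regulators and engulfment, for the 3 transgenic crosses in both windows, with a dot where the adjusted p was under 0.05. The strongest colours are those of egr late with activated Notch (-2.19 and -2.22) and wgn late in combined embryos (2.22), skl reaches 1.21 and 1.19 late with activated Notch, and none of the 26 other genes exceeds 0.81 in size.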

How the data were processed

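Total RNA of Drosophila embryo pools was hybridised to 24 Affymetrix DrosGenome1 arrays. The values deposited by the authors are log2 levels per probe set, made with GCRMA per the submitters' processing notes, with no version in the sources used. GCRMA draws dim probe sets together, which understates changes near the floor. Of 14010 probe sets, 44 controls were left out and 12443 had 1 symbol, updated through RefSeq gene IDs where matched. Rows with a value of 5 or more in at least 3 arrays were kept, with the brightest probe set per gene (5736 rows). limma 3.58.1 in R 4.3.3 was fitted on 8 group means, as the design text names limma, for 21 comparisons. The number of arrays, 3 per group, limits the precision.

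Same-numbered arrays of a window deviated together from their group means (r = 0.16 to 0.67 in all 36 pairs of arrays of different crosses, each highest for its own number), so the numbers were taken to pair the arrays, and blocked values are given where the block changed a call of the 3 genes. The pairing comes from these data and the shared numbers in the labels.

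Known changes of 0.5, 1 and 2 log2 units were put into 67, 67 and 66 of 5736 simulated rows. Under the comparison of late Notch with control, 55.2%, 97% and 100% of them were found again, and 8 of 176 calls were false. In the simulated late interaction 19.4%, 70.1% and 95.5% were found, and 4 of 127 calls were false. In the arrays themselves 13.7% of rows were called late with Notch, and same-numbered arrays deviated together. Whether the rates above hold for such data was not tested.

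The genes, the pathway and marker lists and the tests were chosen with earlier results of these data known. Named beside the 3 genes were the 3 most and 1 least similar genes of each, and from each list up to 4 called members or 2 bright ones. Scaling, filters, probe set choice, the arrays fitted, the prior, the replicate block and single arrays left out were varied, and a random block was added after seeing the data.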

Additional observations from a re-analysis of the deposited data

Results flagged for a closer look

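The effect of Notch on egr differed between windows by a test of the difference itself, at -1.31 log2 units late minus early (limma adjusted p = 0.0016). The combined effect on egr likewise differed, at -1.46 log2 units (adjusted p = 0.00038). egr lay under 5 in all early arrays with activated Notch, and it passed the filter only through Ras and control arrays.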

How the results depend on the processing

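The 18 differences of egr, wgn and skl against control gave 276 values under the alternatives, and 275 kept their side of the threshold. The exception was the late rise of wgn with Notch, called at 0.70 log2 units and not called without late Notch replicate 3; over the single arrays left out it ranged from 0.57 to 0.86. The sign of an uncalled Ras difference of egr or skl turned in 7 cases, all with 1 array left out. A filter at 7 removed egr and skl from the fit. The replicate block was set within each window by choice, so it was not run for late minus early differences within a cross. It was run for the difference of a transgene effect between windows. The replicate block within the window (called paired here) changed no call among these 18 differences, and gave adjusted p = 3.3e-09 for the late fall of egr with Notch; the other calls of these 3 genes that it changed stand beside their results. Among the marker lists it also moved counts not given there, such as blood cell markers late with both transgenes, 5 lower in place of 3. The share of all rows called there was 22% with the block and 15.1% without it. A random replicate block, added after seeing the data, called the same comparisons of wgn between crosses (adjusted p = 0.019 and 0.043 early, 0.0029 late). It also called the late minus early difference of wgn in control embryos (0.049). It did not call the Ras effect on wgn or the Notch effect on skl between windows.

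The share of all rows called moved more than the 3 genes did. It ran from 2.56% (no filter) to 8.63% (replicate block) for early Notch, 0.174% (without early control replicate 3) to 0.767% (block) for early Ras, and 3.06% (no filter) to 12.7% (block) for early combined. Late, it ran from 8.04% (no filter) to 21.5% (block) for Notch, 0.384% (only the arrays compared) to 4.9% (block) for Ras and 7.63% (no filter) to 22% (block) for combined. For Ras against Notch late it reached 43.1% without a filter. The cause was not tested. Signal near the floor limits what can be seen of egr in arrays with activated Notch and of skl elsewhere.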

Other observations

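Within groups, wgn was lowest in replicate 2 and highest in replicate 3 in all 8 groups, over both windows and all 4 crosses, while egr showed no such pattern, with each number lowest in 2 or 3 groups. The SD of the wgn difference in same-numbered arrays was below the SDs of both levels in early combined and in all late crosses. In early Notch embryos it was 0.154 against 0.207 in Notch and 0.0728 in control arrays, and in early Ras embryos 0.0426 against 0.0375 in Ras and 0.0728 in control arrays. In late combined embryos the difference was 2.23, 2.18 and 2.24 log2 units, an SD of 0.03, where the levels had an SD of 0.22 in combined and 0.19 in control arrays. Over all rows, deviations of same-numbered arrays of different windows had a median r of 0.13 (48 pairs), against -0.08 for arrays of other numbers (96 pairs). skl was highest in replicate 3 in 6 of the 8 groups and never highest in replicate 1.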
